A study of Homo sapiens with 2 samples.

Results

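The SLC25 family holds the carriers that move metabolites, nucleotides and ions across the inner mitochondrial membrane, with single members in peroxisomes or on the outer membrane. Its genes were taken as those whose symbol is SLC25A followed by a number, without pseudogenes, antisense transcripts and SLC25A40. The table gave 45 such genes with a probe set annotated to 1 gene symbol, out of 18377 genes in all, and SLC25A6 was not analysed here. EBC1-R is a subline of the human lung cancer line EBC1 that survived stepwise increases of PHA-665752, an inhibitor of the MET receptor kinase, and was then kept in medium with 3 µM of it. EBC1 is the parental line, described as wild type, with no inhibitor named for it. Each was measured on 1 whole-transcript array, so no value below has a replicate error and no difference was tested. The labels do not say whether EBC1-R is a clone, and resistance and the presence of the inhibitor cannot be told apart.

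Carriers of this family share a fold of repeated modules and mostly work as exchangers, bringing one molecule in while another leaves. They supply the matrix with phosphate, ADP and cofactors, export ATP and citrate, and link the urea cycle, heme synthesis and fatty acid oxidation across the membrane. Growing cells use citrate export for lipid synthesis and aspartate-glutamate exchange to carry reducing equivalents into mitochondria.

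Levels are deposited intensities on the log2 scale, and a difference is the EBC1-R value minus the EBC1 value. Levels of different genes come from different probes and were not compared with each other. Over all 45 carriers the median difference was -0.01, against -0.03 over all genes. The carriers divided almost evenly, with 22 higher and 23 lower in EBC1-R, and other scalings of the arrays gave up to 24 higher and turned the median to as much as 0.03. By any amount, 43.3% of all genes were higher, or 7958 of 18377, and 10197 were lower. SLC25A27 was the 1 carrier at least 2-fold higher, or 2.22% of the family, where 1.26% of all genes were. No carrier was at least 2-fold lower, where 0.887% of all genes were. At the lower threshold of 1.5-fold, SLC25A27 was the 1 carrier higher, beside 4.41% of all genes, and 4 carriers (8.89%) were lower, beside 3.16% of all genes. The 4 were SLC25A29, SLC25A25, SLC25A24 and SLC25A2. The 5 are 11.1% of the family, and 7.57% of all genes differed as much. A level filter marked genes whose higher value reached 7.41, the median of that value over all genes. It was passed by 29 carriers, of which 4 (13.8%) differed at least 1.5-fold, and by 9189 genes, of which 12.5% did. Above the filter, the share that differed at least 1.5-fold, whether higher or lower, thus lay near that of all genes. By direction, 1 of these 29 carriers was higher and 3 were lower, beside 646 and 505 of the 9189 genes. Without the filter, the share of carriers lower (8.89%) was larger than that of all genes (3.16%), but it rests on 4 carriers. The share higher, of 1 carrier, was smaller than that of all genes. The SD of the differences was 0.34 among carriers and 0.36 among all genes, whose values ran from -2.85 to 7.27. The quartiles lay wider among carriers, at -0.21 and 0.16 against -0.17 and 0.13 among all genes. The median absolute difference was 0.20 among carriers and 0.16 among all genes. Above the level filter it was 0.22 among carriers and 0.21 among all genes. SLC25A42 and SLC25A25 passed the filter on 1 array alone. The RNA came from bulk cultures, so less transcript per cell and fewer cells with the transcript cannot be told apart.

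**Figure D1:**
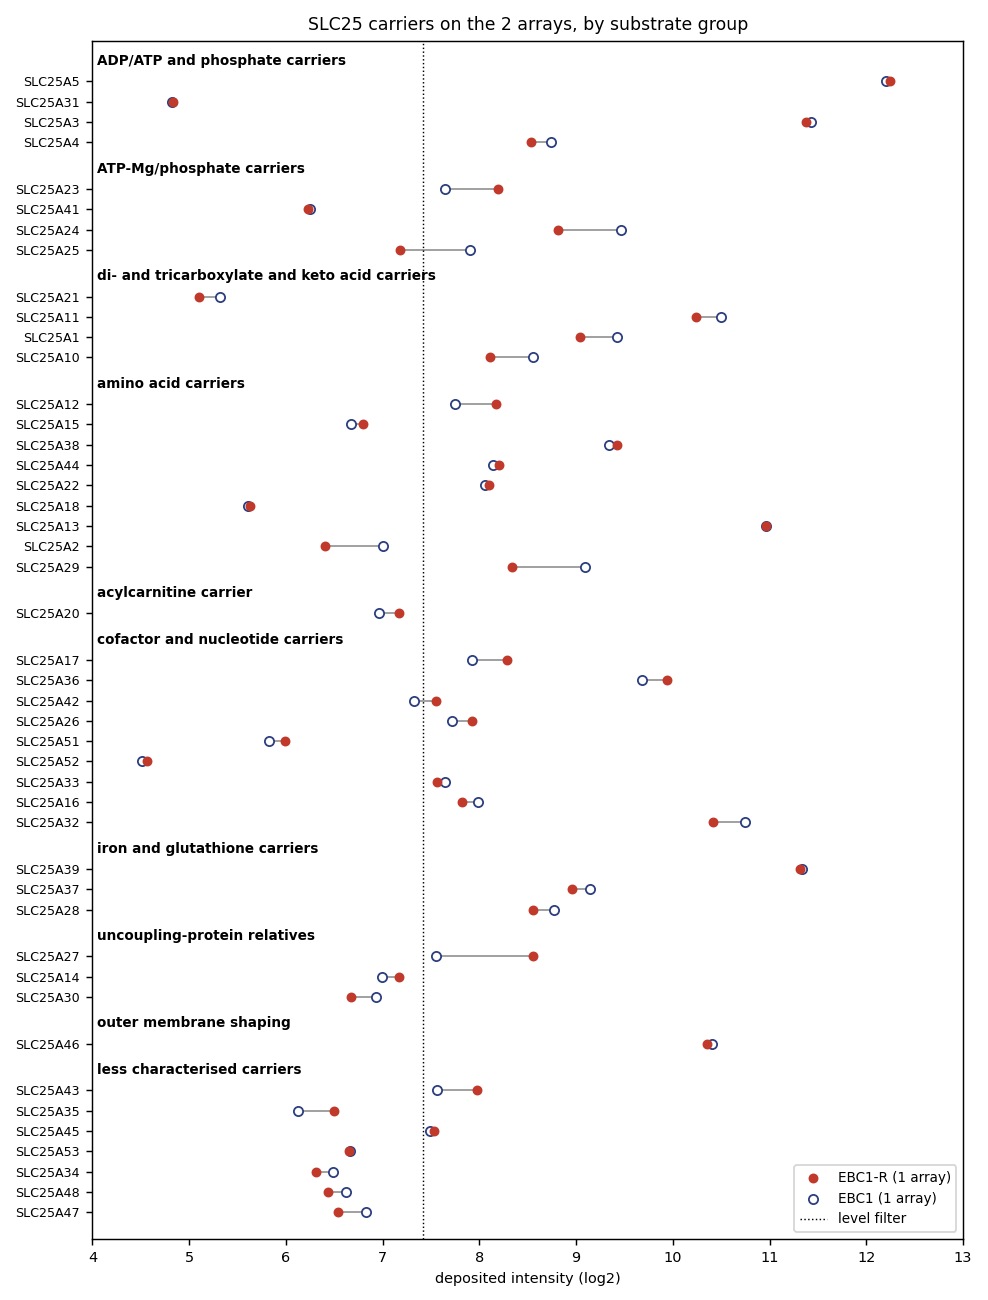
Deposited log2 intensities of the 45 carriers on the EBC1-R array (filled circles) and the EBC1 array (open circles), by substrate group, with the level filter of 7.41 as a dotted line. The widest gap is that of SLC25A27 to the right, and SLC25A29, SLC25A25, SLC25A24 and SLC25A2 have the widest gaps to the left. Positions of different genes cannot be compared.

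Promoter sequences are shown for 5 genes: those of the carriers with the highest and the lowest difference, SLC25A27 and SLC25A29, and those of the 3 calcium-regulated ATP-Mg/phosphate carriers, paralogs that differed in opposite directions. Each runs from 250 bases before to 50 bases after a transcription start in RefSeq (GRCh38.p14) and is written 5′ to 3′ on the strand of the gene. The windows are chr6:46652725-46653024 on the plus strand for SLC25A27 and chr14:100306395-100306694 on the minus strand for SLC25A29. Those of the ATP-Mg/phosphate carriers are chr1:108200294-108200593 (minus) for SLC25A24, chr9:128098257-128098556 (plus) for SLC25A25 and chr19:6459743-6460042 (minus) for SLC25A23. SLC25A24 had 2 windows and SLC25A25 had 3, of which the first listed is printed. The arrays do not tell which start was used. Capitals mark matches, on either strand, to the 9 motifs named after the sequences.
SLC25A27: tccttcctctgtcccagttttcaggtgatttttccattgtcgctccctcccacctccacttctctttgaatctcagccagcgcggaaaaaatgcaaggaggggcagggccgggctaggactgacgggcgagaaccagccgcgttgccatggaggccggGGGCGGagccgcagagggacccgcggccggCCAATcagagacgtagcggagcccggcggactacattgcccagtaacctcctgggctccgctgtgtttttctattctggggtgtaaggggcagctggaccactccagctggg
SLC25A29: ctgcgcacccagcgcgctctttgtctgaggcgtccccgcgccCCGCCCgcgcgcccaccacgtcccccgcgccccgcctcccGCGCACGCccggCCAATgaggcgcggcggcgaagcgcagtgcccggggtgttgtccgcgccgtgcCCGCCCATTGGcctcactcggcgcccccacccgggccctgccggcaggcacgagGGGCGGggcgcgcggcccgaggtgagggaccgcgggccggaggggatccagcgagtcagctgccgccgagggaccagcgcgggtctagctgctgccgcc
SLC25A24: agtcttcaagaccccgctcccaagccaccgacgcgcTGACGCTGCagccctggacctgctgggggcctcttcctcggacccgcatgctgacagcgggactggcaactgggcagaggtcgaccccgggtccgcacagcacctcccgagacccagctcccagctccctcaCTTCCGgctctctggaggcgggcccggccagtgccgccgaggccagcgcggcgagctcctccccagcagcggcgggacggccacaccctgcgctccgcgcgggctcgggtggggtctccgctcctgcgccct
SLC25A25: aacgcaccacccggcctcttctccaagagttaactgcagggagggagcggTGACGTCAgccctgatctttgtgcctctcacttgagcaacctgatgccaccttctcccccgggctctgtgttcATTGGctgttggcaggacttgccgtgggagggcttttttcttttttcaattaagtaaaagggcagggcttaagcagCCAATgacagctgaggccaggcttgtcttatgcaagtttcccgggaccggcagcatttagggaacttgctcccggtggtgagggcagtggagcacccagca
SLC25A23: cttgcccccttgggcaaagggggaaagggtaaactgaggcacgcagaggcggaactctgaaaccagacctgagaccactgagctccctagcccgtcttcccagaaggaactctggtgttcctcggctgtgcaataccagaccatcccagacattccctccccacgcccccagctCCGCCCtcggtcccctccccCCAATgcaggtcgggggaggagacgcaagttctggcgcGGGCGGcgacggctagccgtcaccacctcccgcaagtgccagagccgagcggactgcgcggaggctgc

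The 9 motifs searched were the GC box GGGCGG, the CCAAT box CCAAT, the ETS core CGGAAG, the NRF1 core GCNTGCGC, the E-box CACGTG, the cyclic AMP response element TGACGTCA, the AP-1 motif TGANTCA, the antioxidant response element TGACNNNGC and the TATA box TATAAA. A sequence that fits both the AP-1 motif and the antioxidant response element was counted under each. Promoter windows were used for 38 of the 45 carriers, 48 windows in all. Carrier windows on chromosome 8, where SLC25A32 and SLC25A37 lie, were left out. The set of all windows was not filtered in this way. The GC box was in 64.6% of the carriers' windows and in 45.0% of all 35116 windows. The ETS core was in 35.4% of the carriers' windows, against 19.5% of all, and the E-box in 18.8%, against 7.26%. The median GC content was 65.3% in the carriers' windows and 58.7% in all windows, and the part of base composition in these shares was not tested. The CCAAT box was in 43.8% of carrier windows against 34.6% of all, the NRF1 core in 14.6% against 12.0%, and the antioxidant response element in 18.8% against 13.3%. The AP-1 motif (4.17% against 7.71%) and the TATA box (8.33% against 11.5%) were in smaller shares of the carriers' windows.
In the printed windows, SLC25A27 had 1 GC box and 1 CCAAT box, and SLC25A29 had 3 GC boxes, 2 CCAAT boxes and 1 NRF1 core in a window of 80.0% GC. SLC25A25 had the cyclic AMP response element, which 3 carrier windows (6.25%) and 1.85% of all windows held, and 2 CCAAT boxes. Its other windows, not printed, lacked that element. The second held 5 GC boxes, 2 ETS cores and 2 antioxidant response elements, and the third 2 CCAAT boxes. The SLC25A24 window held an ETS core and an antioxidant response element, and the SLC25A23 window 2 GC boxes and 1 CCAAT box. These are matches of letters and not binding sites.

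The uncoupling-protein relatives included the carrier with the largest difference. SLC25A27, also called UCP4 and best known from brain, was at 8.56 in EBC1-R and 7.55 in EBC1. Its difference, 2.01-fold, stood at the 98.8th percentile of all genes. It lay at the edge of the 2-fold threshold, and its range over the alternative treatments of the values was 0.95 to 1.03. SLC25A14 (UCP5) was at 7.17 in EBC1-R and 6.99 in EBC1, a difference of 0.18. SLC25A30, the closest relative of SLC25A14, was at 6.68 in EBC1-R and 6.93 in EBC1, a difference of -0.25. Both were under the level filter, so 1 of the 3 relatives was 2-fold higher and the other two differed by small amounts in opposite directions.

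SLC25A27 (NCBI gene 9481) lies on chromosome 6 head to head with CYP39A1, a cytochrome P450 that hydroxylates a cholesterol derivative, and their start sites are 157 bases apart, so that of CYP39A1 is within the SLC25A27 window printed above. CYP39A1 was at 6.79 in EBC1-R and 5.86 in EBC1, a difference of 0.93, under the level filter on both arrays. Both genes of the pair were thus higher by a similar amount. The next genes outward on either side, RCAN2 (-0.06) and TDRD6 (0.10), differed little, but both were under the level filter. Among the carriers whose promoter windows were used, 5 had a measured gene that starts within 1000 bases in the opposite direction. Of these 5 pairs, 2 differed in the same direction. The other same-direction pair was SLC25A11 at -0.25 and RNF167, a ubiquitin ligase whose start is 46 bases away, at -0.27. SLC25A25 (-0.72) and NAIF1 (0.10), SLC25A48 (-0.18) and CXCL14 (0.05), and SLC25A5 (0.04) and its antisense transcript SLC25A5-AS1 (-0.34) differed in opposite directions. Whether probes of these pairs overlap was not checked.

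The ATP-Mg/phosphate carriers adjust the adenine nucleotide content of the matrix by exchanging ATP-Mg for phosphate. SLC25A24, SLC25A25 and SLC25A23 carry calcium-binding EF hands, and SLC25A41 lacks them. SLC25A25 (gene 114789, chromosome 9) was at 7.18 in EBC1-R and 7.90 in EBC1, a difference of -0.72 or 1.65-fold lower. SLC25A24 (gene 29957, chromosome 1) was at 8.81 in EBC1-R and 9.47 in EBC1, a difference of -0.65 or 1.57-fold lower. These values stood at the 2.08th and 2.50th percentiles of all genes. SLC25A23 went the other way, with 8.19 in EBC1-R and 7.64 in EBC1, a difference of 0.55. At 1.46-fold it lay just short of the 1.5-fold threshold, at the 95.0th percentile. SLC25A41, under the level filter, was at 6.22 in EBC1-R and 6.25 in EBC1. The 3 calcium-regulated paralogs therefore all differed by 1.46-fold or more, 2 of them lower and 1 higher in EBC1-R, while SLC25A41, which neighbours SLC25A23 on chromosome 19 with no measured gene between them, differed by -0.03. Genes around SLC25A25 differed unevenly: EEIG1 was at -0.92, NAIF1 at 0.10, PTGES2 at 0.11 and LCN2, which encodes lipocalin, at 2.80.

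Amino acid carriers held the lowest difference of the family together with several members that hardly differed. SLC25A29, which carries arginine, lysine and other basic amino acids (gene 123096, chromosome 14), was at 8.34 in EBC1-R and 9.09 in EBC1, a difference of -0.75 or 1.68-fold lower, at the 1.88th percentile. SLC25A2, an ornithine carrier (gene 83884, chromosome 5), was at 6.40 in EBC1-R and 7.01 in EBC1, a difference of -0.61 or 1.52-fold lower, under the level filter on both arrays. SLC25A15, the ornithine-citrulline exchanger of the urea cycle and the close paralog of SLC25A2, was at 6.80 in EBC1-R and 6.67 in EBC1, a difference of 0.13. Of the 3 carriers of basic amino acids, 2 were thus at least 1.5-fold lower and the third was slightly higher, with SLC25A29 alone above the level filter. SLC25A2 was under 1.5-fold after removal of the lowess trend (-0.56) and with a pseudocount of 16 (-0.53). SLC25A47 lies next to SLC25A29 on chromosome 14 and was also lower, at 6.54 in EBC1-R and 6.83 in EBC1. YY1 on the other side of SLC25A29 was at -0.11.

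The aspartate-glutamate carriers of the malate-aspartate shuttle differed from each other in size. SLC25A12 (aralar) was at 8.18 in EBC1-R and 7.75 in EBC1, a difference of 0.42 or 1.34-fold. SLC25A13 (citrin) was at 10.97 in EBC1-R and 10.96 in EBC1. The glutamate carriers SLC25A22 (8.10 in EBC1-R, 8.06 in EBC1) and SLC25A18 (5.63 in EBC1-R, 5.61 in EBC1) differed by 0.04 and 0.02. SLC25A38, a glycine carrier of heme synthesis, was at 9.43 in EBC1-R and 9.34 in EBC1. SLC25A44, a carrier of branched-chain amino acids, was at 8.20 in EBC1-R and 8.14 in EBC1. In this group 7 of 9 members were higher, but only SLC25A12 and SLC25A15 of these by more than 0.1, and the group's median difference was 0.04.

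All 4 carriers of di- and tricarboxylates and keto acids were lower in EBC1-R, none of them 1.5-fold. SLC25A10, which exchanges malate or succinate for phosphate, was at 8.11 in EBC1-R and 8.55 in EBC1, a difference of -0.44. SLC25A1, the citrate carrier that provides cytosolic citrate for fatty acid and sterol synthesis, was at 9.04 in EBC1-R and 9.43 in EBC1, a difference of -0.39. SLC25A11, the oxoglutarate-malate carrier, was at 10.24 in EBC1-R and 10.49 in EBC1. SLC25A21, which carries oxoadipate, was at 5.10 in EBC1-R and 5.31 in EBC1, under the level filter. The group's median difference was -0.32, beside -0.03 over all genes. Over all genes, 10197 of 18377 were lower. The 4 members kept this direction under every alternative treatment of the values, but that outcome was largely fixed in advance. Each has 1 probe set, so the brightest probe set changes nothing, and median centring shifts every carrier by the same 0.02. It adds no separate support.

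The ADP/ATP and phosphate carriers, which serve oxidative phosphorylation directly, differed little. SLC25A5, the ADP/ATP carrier of proliferating cells, was at 12.25 in EBC1-R and 12.21 in EBC1. SLC25A3, the phosphate carrier, was at 11.37 in EBC1-R and 11.42 in EBC1. SLC25A4, the ADP/ATP carrier of heart and muscle, was at 8.54 in EBC1-R and 8.74 in EBC1, a difference of -0.20. SLC25A31, known from testis, was at 4.83 in EBC1-R and 4.82 in EBC1. All 4 differences lay within 0.25 log2 units (1.19-fold). ADP/ATP carriers are close in sequence, and hybridisation of one transcript to another's probes was not tested.

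Among the cofactor and nucleotide carriers 6 of 9 were higher in EBC1-R, with a median difference of 0.16 and none 1.5-fold different. SLC25A17, the peroxisomal carrier of coenzyme A, FAD and nucleotides, was at 8.29 in EBC1-R and 7.92 in EBC1, a difference of 0.37. SLC25A36, which carries pyrimidine nucleotides, was at 9.94 in EBC1-R and 9.68 in EBC1, a difference of 0.26. SLC25A42, a coenzyme A carrier, was at 7.55 in EBC1-R and 7.32 in EBC1, and SLC25A26, which imports S-adenosylmethionine, at 7.93 in EBC1-R and 7.72 in EBC1. SLC25A51, the NAD carrier, was at 5.99 in EBC1-R and 5.83 in EBC1, and its paralog SLC25A52 at 4.56 in EBC1-R and 4.51 in EBC1, both under the level filter.
SLC25A32, the carrier of folate and FAD, was at 10.41 in EBC1-R and 10.75 in EBC1, and its difference of -0.34 was the lowest of the group. SLC25A16, linked to coenzyme A transport, was at 7.82 in EBC1-R and 7.98 in EBC1. SLC25A33, a pyrimidine nucleotide carrier like SLC25A36, was at 7.56 in EBC1-R and 7.64 in EBC1, the mean of 2 probe sets that each differed by -0.08. One of these 2 probe sets stands, in the order of probe set numbers, among genes of chromosome 11, whereas SLC25A33 is on chromosome 1. The other 46 of the carriers' 47 probe sets stood among genes of their own chromosome.

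The iron and glutathione carriers were all slightly lower in the deposited values, but SLC25A39 was at 0.00 after median centring and SLC25A37 was higher with its brightest probe set. SLC25A28 (mitoferrin-2) was at 8.55 in EBC1-R and 8.77 in EBC1, a difference of -0.22. SLC25A37 (mitoferrin-1) was at 8.96 in EBC1-R and 9.14 in EBC1, but its 2 probe sets disagreed. One was at 9.65 in EBC1-R and 9.55 in EBC1, and the other at 8.27 in EBC1-R and 8.73 in EBC1, so SLC25A37 has no settled direction here. SLC25A39, a glutathione carrier, was at 11.31 in EBC1-R and 11.33 in EBC1. Its paralog SLC25A40 is not among the genes described. The acylcarnitine carrier SLC25A20, which brings fatty acids into the matrix for oxidation, was at 7.17 in EBC1-R and 6.96 in EBC1, a difference of 0.21 under the level filter. SLC25A46, an outer membrane protein that shapes mitochondria, was at 10.36 in EBC1-R and 10.40 in EBC1.

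The 7 less characterised carriers divided into 3 higher and 4 lower, of which SLC25A53 turned higher under 3 scalings. SLC25A43 was at 7.97 in EBC1-R and 7.56 in EBC1, a difference of 0.41, while SLC25A5 beside it on the X chromosome differed by 0.04. SLC25A35 was at 6.49 in EBC1-R and 6.12 in EBC1, a difference of 0.37. SLC25A45 differed by 0.04, SLC25A53 by -0.01, SLC25A34 by -0.17, SLC25A48 by -0.18 and SLC25A47 by -0.29. Of these 7, SLC25A43 and SLC25A45 passed the level filter.

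**Figure D2:**
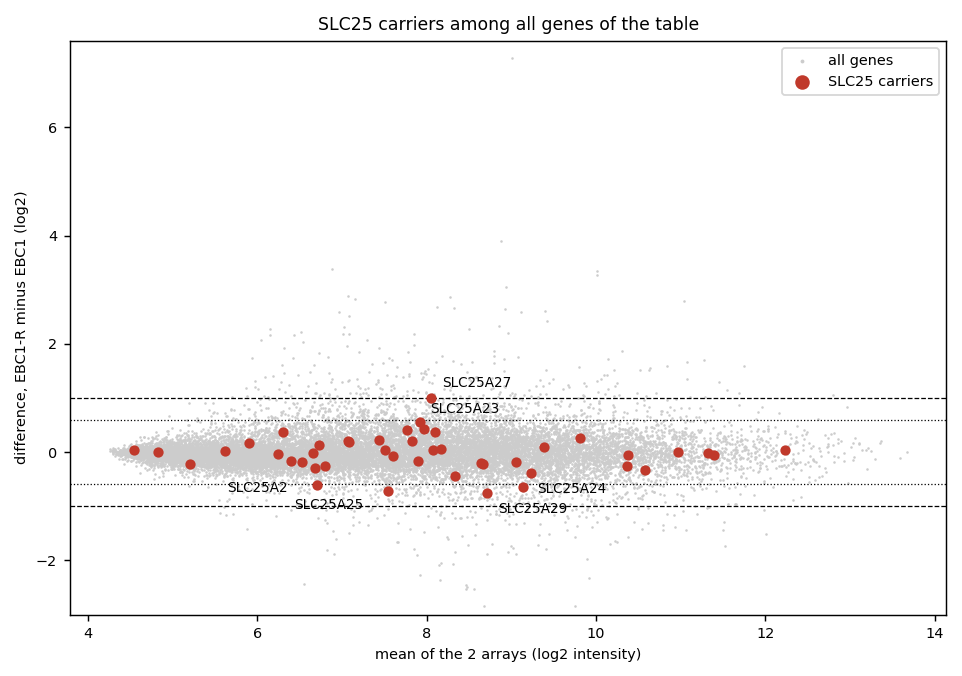
Difference between the arrays (log2, EBC1-R minus EBC1) against the mean of both arrays (log2 intensity), for 18377 genes in grey and the 45 carriers in red. Dashed lines mark 2-fold and dotted lines 1.5-fold. SLC25A27 touches the upper dashed line, SLC25A23 lies just under the upper dotted line, and 4 carriers lie under the lower dotted line.

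The carriers' differences can be read against the agreement of probe sets of 1 gene. Over 374 genes with several probe sets above the level filter, such probe sets differed from their gene's mean by a pooled SD of 0.16. Of the carriers, 16 (35.6%) differed by no more than this, beside 50.4% of all genes. The SD was taken above the level filter, but these shares include genes under it, so they are not like for like. Under the filter, 75% of carriers and 81.1% of all genes differed by no more than 0.25. Above the level filter, 55.2% of carriers and 56.3% of all genes differed by no more than 0.25, and the median absolute difference was 0.22 for carriers and 0.21 for all genes. That SD comes from a single pair of arrays and holds no variation between cultures.

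Family relatives with other symbols were measured too. UCP2, an uncoupling protein, was at 6.81 in EBC1-R and 7.80 in EBC1, a difference of -0.99 or 1.99-fold lower, opposite in direction to SLC25A27. UCP2 passed the level filter in EBC1 alone. UCP1 (-0.11) and UCP3 (-0.02), under the level filter, differed little. MTCH2, an outer membrane insertase, was at 10.31 in EBC1-R and 9.84 in EBC1, a difference of 0.48, and its paralog MTCH1 differed by -0.05. Of 7 inner membrane carriers outside the family, the pyruvate carrier subunits MPC1 and MPC2 and the sideroflexins, which include a serine carrier, 6 were higher in EBC1-R. All 7 passed the level filter, SFXN5 in EBC1-R alone, and 4557 of the 9189 genes above it were higher. The median difference of these 7 was 0.28, with SFXN4 at 0.56, SFXN5 at 0.52 and SFXN1 at 0.34, and SFXN3 alone lower at -0.28. None of them differed 1.5-fold.

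SLC25 carriers are imported through the outer membrane receptor TOMM70 and inserted by the TIM22 complex with the help of small TIM chaperones. Of 13 genes of this import route 10 were lower in EBC1-R, none 1.5-fold, with a median difference of -0.07. Over all genes, 10197 of 18377 were lower, with a median of -0.03, and above the level filter 4609 of 9189 were. TIMM8B (-0.03), TIMM9 (-0.05) and TIMM29 (-0.06) were among the 10 and differed little. The largest was that of the chaperone TIMM10, at 8.72 in EBC1-R and 9.09 in EBC1, a difference of -0.37. TIMM22, the channel subunit, was at 10.61 in EBC1-R and 10.94 in EBC1, and TOMM70 differed by -0.07. AGK, a lipid kinase and subunit of the complex, was higher by 0.20.

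Of 25 measured enzymes and channels that work with the carriers, 2 were at least 1.5-fold higher and none lower. All but NMNAT3 passed the level filter. Of the 9189 genes above it, 7.03% were higher by as much, so the count of 2 lay near that share, and 505 genes were lower by as much. ASS1, which joins citrulline and aspartate in arginine synthesis, was at 9.65 in EBC1-R and 8.74 in EBC1, a difference of 0.91. Of the carriers beside it, the ornithine-citrulline exchanger SLC25A15 was at 0.13 and SLC25A29 at -0.75, while ornithine aminotransferase OAT was at 0.01 and the mitochondrial arginase ARG2 at -0.34. FECH, which inserts iron into heme, was at 8.72 in EBC1-R and 7.83 in EBC1, a difference of 0.89. The iron-sulfur scaffold ISCU was at 0.49 and ALAS1, of the first step of heme synthesis, at 0.07, whereas the iron carrier SLC25A28 was at -0.22 and the glycine carrier SLC25A38 at 0.09.
For citrate export, the carrier SLC25A1 (-0.39), citrate synthase CS (-0.16) and the citrate-cleaving enzyme ACLY (-0.26) were all lower. For one-carbon metabolism, the folate carrier SLC25A32 (-0.34), SHMT2 (-0.12), MTHFD2 (-0.28) and MTHFD1L (-0.15) were all lower. Above the level filter, which all of these genes passed, 4609 of 9189 genes were lower. SHMT2 and MTHFD1L differed by less than the SD of 0.16 between probe sets of a gene, and CS by about as much. In the malate-aspartate shuttle, SLC25A12 (0.42), MDH1 (0.40) and GOT2 (0.21) were higher, SLC25A11 (-0.25) was lower, and SLC25A13, GOT1 and MDH2 lay within 0.06 of 0. Glutathione reductase GSR (0.33) and the peroxidase GPX4 (0.18) were higher while SLC25A39 was at -0.02. The fatty acid oxidation enzymes CPT1A (0.01) and CPT2 (-0.02) hardly differed beside SLC25A20 (0.21). In NAD metabolism NADK2 (0.51) and NMNAT3 (0.25), the second under the level filter, were higher, as were SLC25A51 and SLC25A52 by less.
The outer membrane channels that let the carriers' substrates through were at 0.22 for VDAC1, -0.01 for VDAC2 and -0.30 for VDAC3. PPIF, cyclophilin D, was at 0.08. The median difference over the 50 measured genes outside the rule was -0.02, with 24 higher and 26 lower.

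**Figure D3:**
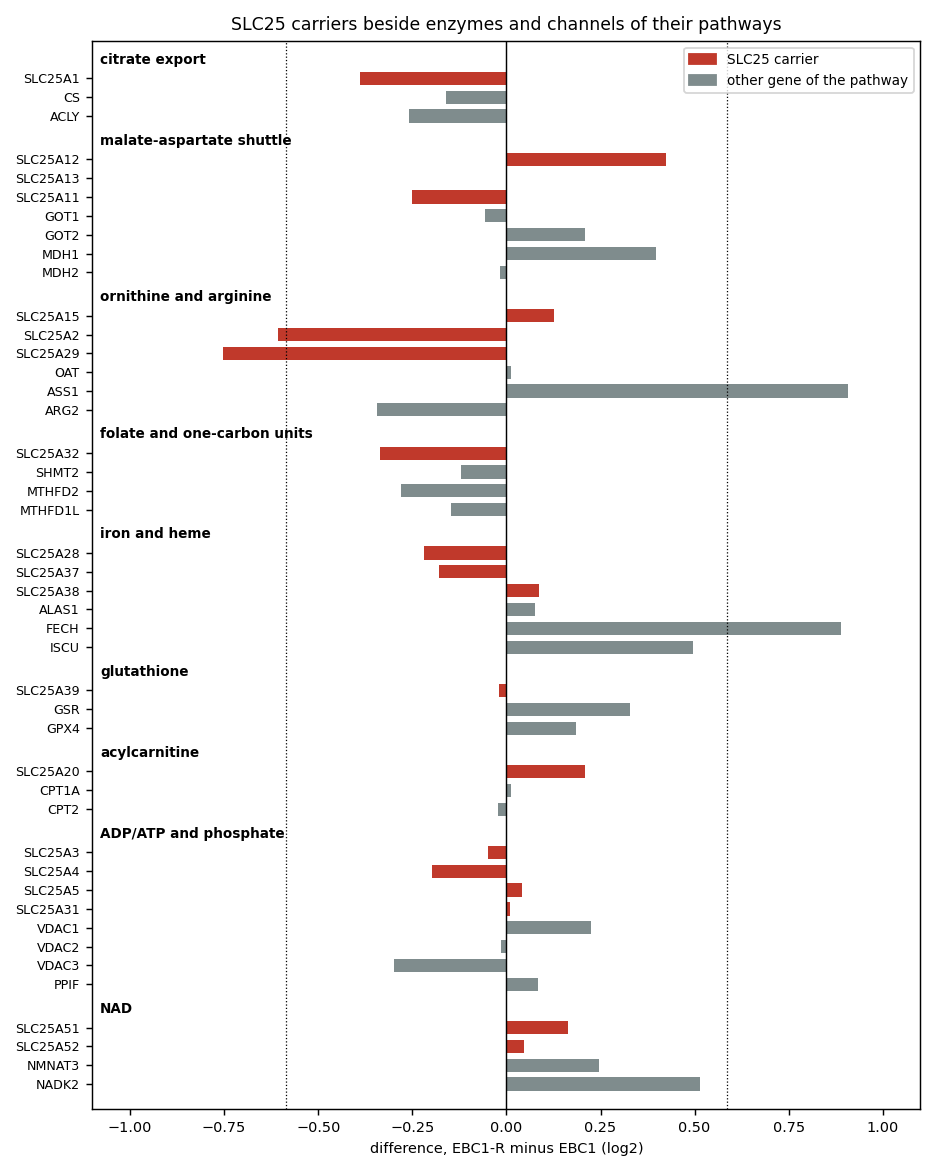
Difference between the arrays (log2, EBC1-R minus EBC1) for carriers (red bars) and other genes of the same pathway (grey bars), with 1.5-fold as dotted lines. Carrier and enzymes are all to the left in citrate export and in folate and one-carbon units, each by less than 1.5-fold. In ornithine and arginine, SLC25A29 and SLC25A2 extend to the left and ASS1 to the right.

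As a check of the cells, the epithelial markers EPCAM, CDH1, KRT8, KRT18 and KRT19 lay between 11.25 and 12.06 in EBC1-R and between 11.33 and 12.83 in EBC1. The 3 keratins differed by -0.78 to -0.89, whereas EPCAM differed by -0.08 and CDH1 by 0.10. The summed linear level of the 5 markers, 17432 in EBC1-R and 25761 in EBC1, thus differs through the keratins. EBC1 is known as a squamous carcinoma line, but the 3 measured squamous markers SOX2, KRT5 and KRT14 were under the level filter on both arrays. Summed levels of 4 leukocyte markers were 169 in EBC1-R and 174 in EBC1, those of 5 fibroblast markers 463 in EBC1-R and 475 in EBC1, and those of 5 endothelial markers 209 in EBC1-R and 206 in EBC1. COL1A1 alone of these 14 passed the level filter, and none differed by more than 0.17. The part of the keratin difference in the carriers' values was not tested.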

How the data were processed

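RNA of EBC1-R (1 array) and EBC1 (1 array) was measured on Affymetrix arrays. Per the labels' protocols the array was an older expression design, but the probe set identifiers match the annotation of a whole-transcript gene array. The authors deposited 1 value per probe set, taken here as log2 intensity from its range (4.22 to 14.2 in EBC1-R, 4.21 to 14.1 in EBC1). The log base, background correction and normalization used by the authors are stated in no label. Sorted columns differed by at most 0.17, so a change shared by most genes would not show.

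Of 28869 probe sets, 19310 had 1 gene symbol, 1752 several and 7807 none. Those with 1 symbol were averaged into 18377 genes (Python 3.11.15, pandas 2.3.3), with no detection calls. All 45 carriers matched RefSeq (GRCh38.p14) by gene identifier. No test was possible with 1 array per group. The number of arrays limits the precision. All carriers were named, and of related genes those at least 1.5-fold different, with others chosen after their values were seen. Carriers, lists, pathways and motifs were chosen with earlier results of these data known. Alternatives were quantile normalization, median centring, removal of a lowess trend (span 0.2, statsmodels 0.14.6), a pseudocount of 16, the brightest probe set, 2 level filters and a 3-fold threshold. The calculation was tested on simulated data.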

Additional observations from a re-analysis of the deposited data

How the results depend on the processing

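SLC25A27 lay at the edge of the 2-fold threshold. The count of carriers at least 2-fold higher was 1 with the deposited values and 0 after quantile normalization, after removal of the lowess trend, with the pseudocount of 16 and at 3-fold. Its difference stayed between 0.95 and 1.03 throughout. Of the carriers above the level filter, taken either on the higher value or on the mean of both arrays, 14 of 29 were higher in EBC1-R, against 22 of 45 without a filter. Of 225 carrier values recomputed under 5 alternatives, 224 moved by less than the SD of 0.16 between probe sets of a gene. The exception was SLC25A37, at -0.18 as the mean of its probe sets and 0.10 with the brightest. Part of this count was fixed in advance. The brightest probe set can change only the 2 carriers with more than 1 probe set, and median centring shifts every carrier by the same 0.02. Signs also changed for SLC25A53, SLC25A39 and SLC25A41, whose differences were within 0.03 of 0. SLC25A2 was under 1.5-fold after removal of the lowess trend (-0.56) and with the pseudocount (-0.53), which took the count of carriers at least 1.5-fold lower to 3, against 4 with the deposited values. No paired analysis was possible because each group has 1 array. No alternative replaces the missing replicates, and signal over background is unknown without detection calls.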
